A study of Rattus norvegicus with 35 samples.

Results

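The laminin and fibronectin receptors described here are 7 named rat genes: the integrin β1 gene Itgb1, the integrin α subunit genes Itga1, Itga5, Itga6, Itga7 and Itgav, and the dystroglycan gene Dag1. They were chosen by name, and their records were found through the RefSeq identifiers of the deposited count table. Of the 7 genes, 6 matched a record, with 1 record each, among 17198 genes and unmatched records. Itgav was not analysed here. Of the 6 measured genes, 5 had reads in the single cells, and Itga1, which encodes a collagen and laminin receptor subunit, had 0 reads in every library.

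The libraries came from rat converted hypoblast stem cells (cHypoSCs), made from rat embryonic stem cells in a medium that held EGF, PDGF, LIF and fetal bovine serum at 2%. All were collected on day 12 of differentiation, and the initial plating time was the same for all. No other genotype, treatment or collection time was used. The 34 single cells were captured on the C1 microfluidic system, and the other library, labelled pop, is a bulk population control. The labels name no separate cultures. Each group was therefore treated as 1 sample, without replicates, and no difference could be tested.

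Integrins are receptors made of an α and a β subunit that link the extracellular matrix to the actin cytoskeleton. The β1 subunit pairs with many α subunits: with α6 or α7 it binds laminins, with α5 it binds fibronectin, and with α1 it binds collagens and laminins. Dystroglycan, encoded by Dag1, is a laminin receptor of another kind that carries the sugar chains laminin binds. Hypoblast-derived endoderm lays down a laminin-rich basement membrane in the early embryo, and β1 integrins and dystroglycan are known to take part in its assembly.

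Cells held between 6288 and 503044 reads in genes (median 266046) and between 349 and 5514 genes with a read, and the bulk library held 47121 reads. Levels are given as CPM, the count scaled to 1000000 reads of the library, and detection in a cell means a level of at least 5 CPM. A depth filter of at least 100000 reads and 3000 genes left 20 cells, called gene-rich below, and 14 others. None of the 561 pairs of cells held identical counts. Of the 7 hypoblast markers examined, 6 were detected in at least 17 cells: Gata6 in 28, Dab2 in 27, Gata4 in 26, Sox17 in 24, Pdgfra in 23 and Foxa2 in 19. Sox7 was detected in 12. The cells labelled C14, C17, C30 and C46 held reads of the fibrillar collagen gene Col1a2, and they held 1, 2, 0 and 3 of these 7 markers. Several of the results that rest on them, on C74 or on the shallow cell C88 are given with and without those cells.

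Itgb1 was the most widely detected of the receptor genes. It was found in 27 of 34 cells (79.4%, exact Clopper-Pearson 95% interval 62.1% to 91.3%), at 302 ± 423 CPM (mean ± SD over cells), with a median of 127 CPM. Genes detected in at least 17 cells made up 27.3% of the 10693 genes with a read in any cell. Itgb1, Itga6 and Dag1 met that mark, and Itga5, Itga7 and Itga1 did not. Only 6.81% of genes were detected in at least as many cells as Itgb1.

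The Itgb1 level ranged from 0 to 1738 CPM over the cells. The highest values were in C14 (1738 CPM, 62 reads), C30 (1429 CPM, 39 reads), C09 (973 CPM, 62 reads), C37 (897 CPM, 218 reads) and C38 (855 CPM, 324 reads). The highest and the next highest cells thus both held Col1a2, and both were shallow, with 35681 reads in C14 and 27284 in C30. The other cells with Col1a2 lay lower, at 308 CPM in C17 and 83.9 CPM in C46. Over the 30 cells without Col1a2, Itgb1 was detected in 23 at 224 ± 284 CPM.

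Itgb1 was missing from 7 cells: C31, C47, C54, C74, C88, C94 and C95. All but C54 fell outside the gene-rich set, in which Itgb1 was detected in 19 of 20 cells at 284 ± 259 CPM. Among the other 14 cells it was detected in 8, at a median of 17.3 CPM. Over all 34 cells, Spearman's rho between Itgb1 CPM and the number of genes with a read was 0.46, as a description of cells from 1 culture that differ in depth.

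Some of the missing values came from deep cells. C54 was the deepest cell, with 503044 reads and 3307 genes, and a count of 0 there allows up to 3 reads, or 5.96 CPM. The same floor was 6.66 CPM in C95 and 6.95 CPM in C74, which held 1642 and 1556 genes. In the shallowest cell, C94, it was 477 CPM, so Itgb1 was not detectable there at levels common elsewhere. C54 still held 4 of the 7 hypoblast markers, with Gata6 at 326 CPM, but had 0 reads of Itgb1, Itga5, Itga6, Itga7, Dag1, Lama1 and Fn1. C54, C94 and C95 were the 3 cells in which none of the receptor genes was detected.

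**Figure D1:**
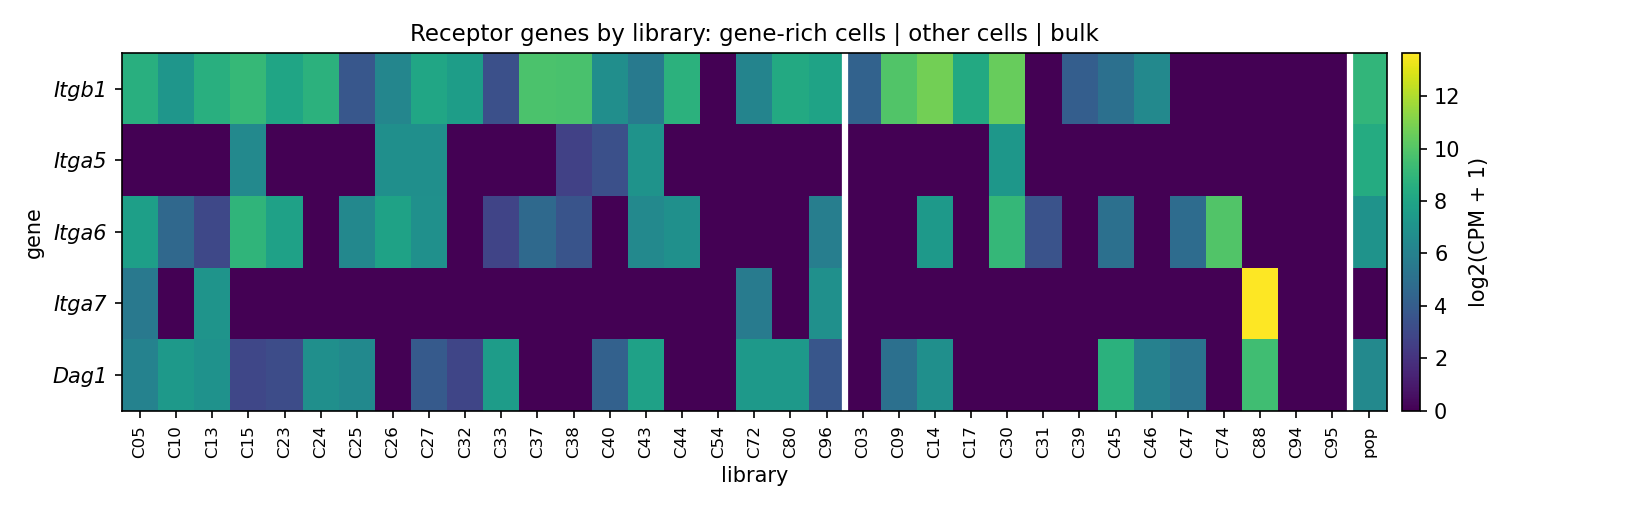
Level of 5 receptor genes in each library, as log2(CPM + 1) by colour, with 20 gene-rich cells on the left, 14 other cells in the middle and the bulk library (pop) on the right of the white lines. Itgb1 has reads in 19 of the 20 gene-rich cells, Itga5 and Itga7 in few, and the brightest tile is Itga7 in C88.

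**Figure D2:**
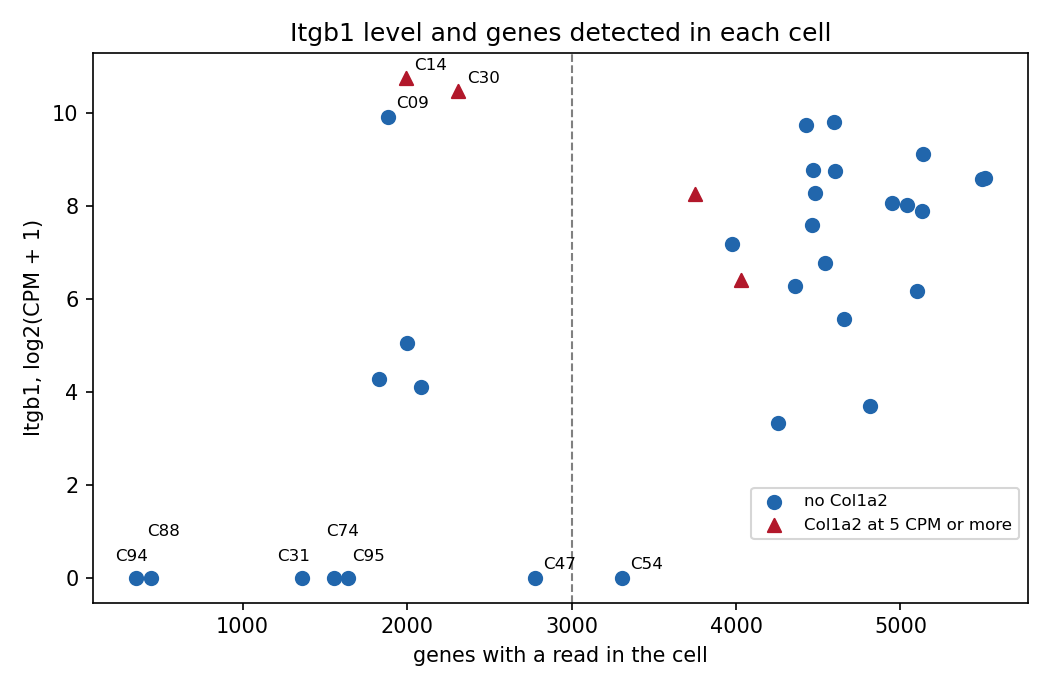
Itgb1 level, as log2(CPM + 1), against the number of genes with a read in each of 34 cells; triangles are the 4 cells with Col1a2 and the dashed line is at 3000 genes. Of the 7 cells at 0, only C54 lies to the right of the line, and C47, with 2777 genes, holds more genes than C14 or C30. C14 and C30 are the highest in Itgb1. C17 and C46 lie to the right of the line but had under 100000 reads.

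Among the α subunits, Itga6 was the one found in most cells. It encodes the partner of β1 in a main laminin receptor. A level of at least 5 CPM was found in 20 of 34 cells (58.8%, interval 40.7% to 75.4%), and the mean was 101 ± 203 CPM, with a median of 10.5 CPM. The highest values were in C74 (973 CPM, 420 reads), C30 (550 CPM, 15 reads), C15 (484 CPM, 150 reads), C26 (229 CPM, 83 reads), C23 (221 CPM, 56 reads) and C05 (211 CPM, 65 reads). Detection was 14 of 20 in the gene-rich cells and 6 of 14 in the others. Without C74, which held 28.3% of the signal, the mean was 74.6 ± 134 CPM.

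C74 stood out by its combination of genes. It held the most Itga6 of any cell and 0 reads of Itgb1, and also 0 of Itgb4, the β subunit that pairs with α6 in epithelial hemidesmosomes. It was also the cell with most reads of the pluripotency gene Pou5f1 (505 reads, 1170 CPM), and it held 28 CPM of Lama1. Even so, C74 held 4 of the 7 hypoblast markers, with Gata6 at 246 CPM. Of the other pluripotency markers, Sox2 had 3 reads in C74, and Esrrb had 0 reads in every cell. Cd151, which encodes a tetraspanin that associates with laminin-binding integrins, was likewise highest in C74, at 6958 CPM or 32.6% of the Cd151 signal of all cells. C74 had 431709 reads but 1556 genes with a read, and the part of library quality in this combination was not tested.

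Itga7, which encodes another laminin-binding α subunit and is best known from muscle, was found in 5 of 34 cells (14.7%, interval 4.95% to 31.1%). C88 held 164 of its 251 reads at 12863 CPM, and the other 4 cells were C13 (133 CPM, 39 reads), C96 (114 CPM, 20 reads), C72 (50.2 CPM, 14 reads) and C05 (45.5 CPM, 14 reads). These 4 were all gene-rich. The mean of 388 ± 2204 CPM was therefore set by C88, which had 12750 reads and 445 genes and carried 97.4% of the signal, and it was 10.4 ± 31.4 CPM without that cell. Among genes detected in at least 5 cells, 14.4% likewise had over 50% of their signal in 1 cell, and Itga7 was the only receptor gene of this kind. Of the 7 muscle markers, Myod1, Myog, Myf5 and Ckm had 0 reads in every cell, Myh3 was detected in 2 cells, Des in 3 and Acta1 in 32. Acta1 is nearly identical in coding sequence to other actin genes, and the handling of shared reads is not given in the sources used here, so its value is uncertain.

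Itga5, whose product forms the classical fibronectin receptor with β1, was found in 7 of 34 cells (20.6%, interval 8.70% to 37.9%), with a mean of 17.4 ± 42.1 CPM. The values were 147 CPM in C30 (4 reads), 126 CPM in C43 (38 reads), 111 CPM in C26 (40 reads), 110 CPM in C27 (33 reads), 83.9 CPM in C15 (26 reads), 9.02 CPM in C40 (2 reads) and 5.28 CPM in C38 (2 reads). All of these but C30 were gene-rich. The positive cells thus fell into 5 at or above 83.9 CPM and 2 at or under 9.02 CPM, with the remaining 27 at 0.

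Reads of Dag1 reached 5 CPM in 21 of 34 cells (61.8%, interval 43.6% to 77.8%). Its mean was 79.97 ± 144 CPM, with a median of 12.4 CPM. The highest values were in C88 (706 CPM, 9 reads), C45 (421 CPM, 26 reads), C43 (226 CPM, 68 reads), C33 (188 CPM, 62 reads) and C80 (167 CPM, 58 reads). Without C88 the mean was 61.0 ± 93.2 CPM. It was detected in 15 of 20 gene-rich cells at 67.5 ± 77.4 CPM and in 6 of the other 14. In 2 cells, C47 and C88, Dag1 was detected without Itgb1.

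Thinning each cell to 50000 reads, which left out 4 shallower cells, put all cells on 1 depth. Itgb1 was then detected in 24 of 30 cells, against 25 of the same cells at full depth. Itga6 was detected in 15 (18 at full depth), Dag1 in 13 (19), Itga5 in 5 (6) and Itga7 in 4 (4). Dag1 lost the most cells, and at full depth it had a count of 2 reads in C09, C15, C23, C32 and C96.

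**Figure D3:**
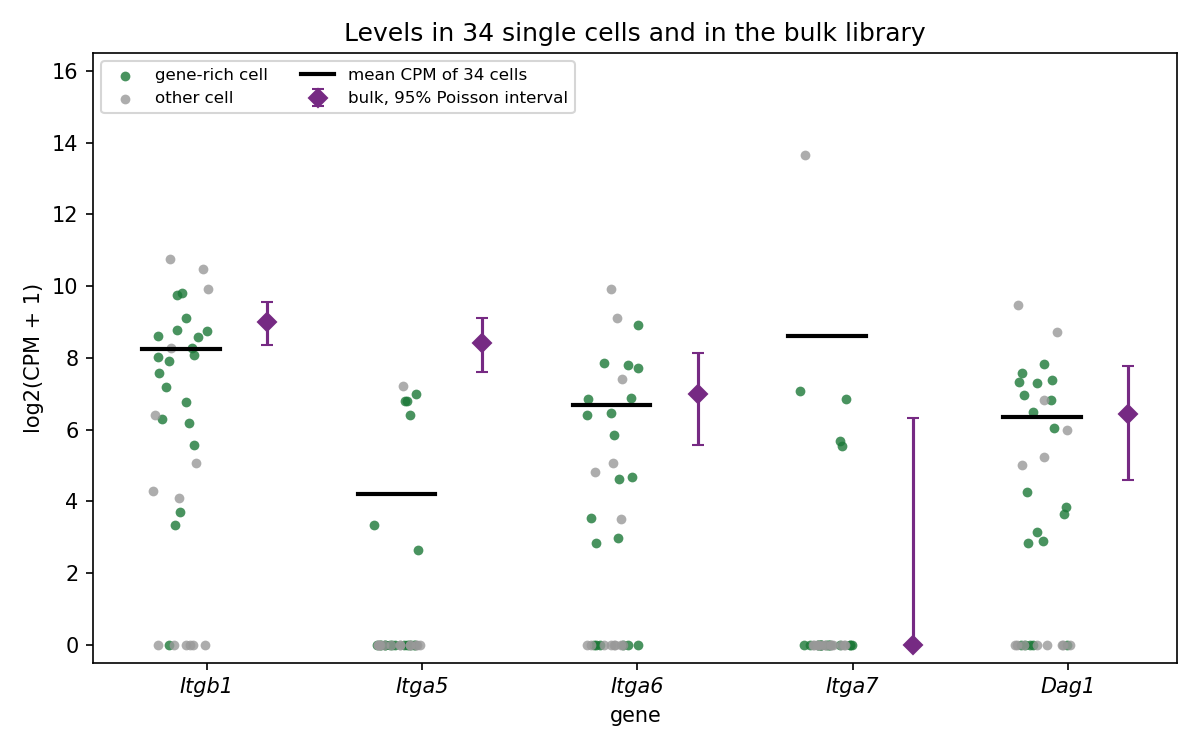
Level of each receptor gene, as log2(CPM + 1), in 34 cells (points; 20 gene-rich cells in green and 14 others in grey), with the mean CPM of the cells as a black bar and the bulk library as a diamond with its 95% Poisson interval. The observed Itga5 values of the cells lie below the bulk value, although the upper limits of C30 and C94 lie above it, and the Itga7 bar is lifted by the point of C88 at the top.

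Since integrins work as pairs, cells were counted by the subunits detected together. Itgb1 was accompanied by at least 1 of Itga5, Itga6 and Itga7 in 19 of 34 cells (55.9%, interval 37.9% to 72.8%). It was detected without any of these in 8 cells, and an α subunit was detected without Itgb1 in 4 cells (C31, C47, C74 and C88). Itgav and several other partners of β1 were not analysed here, so a cell without a counted α subunit is not a cell without a β1 integrin.

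Split by subunit, Itgb1 was present in 7 of the 7 cells with Itga5, in 17 of the 20 with Itga6 and in 4 of the 5 with Itga7. Itgb1 was detected in 79.4% of all cells, so these counts are not read as pairing. Of the 34 cells, 11 had 0 of the 3 α subunits, 14 had 1, 9 had 2 and 0 had all 3. The cells with 2 had either Itga5 and Itga6 (6 cells) or Itga6 and Itga7 (3 cells), and 0 cells held Itga5 and Itga7 together. Itga5 was detected in 20.6% and Itga7 in 14.7% of all cells, so their lack of overlap is not read as exclusion. In the gene-rich cells the pair of Itgb1 with an α subunit was found in 16 of 20 cells (80%), and in the other cells in 3 of 14. Thinned to 50000 reads it was found in 16 of 30.

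Dag1 and the β1 pairs were found in overlapping sets of cells. Dag1 was detected in 14 cells with a β1 pair and in 7 without. Itga6 and Dag1 were found together in 13 cells, and 28 of 34 cells had at least 1 of them. Taken singly, Itga6 was detected in 20 and Dag1 in 21 of the 34 cells, so their overlap is not read as a link. Of the 10 cells highest in Itga6, 2 were also among the 10 highest in Dag1. Within the 20 gene-rich cells Spearman's rho was −0.28 between Itga6 and Dag1, −0.35 between Itgb1 and Dag1 and 0.23 between Itgb1 and Itga6; correlations of this size in sparse counts are no finding.

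The matrix genes that encode the ligands were set beside their receptors. Lama1 and Lamc1 encode the α1 and γ1 chains of laminin, Col4a1 a type IV collagen chain and Fn1 fibronectin. Lama1 and Lamc1 were detected together in 28 cells, and 26 of those also had Itga6, Itga7 or Dag1. Among all 34 cells, 28 had Itga6 or Dag1. Taking all 34 cells, 26 had either Dag1 or the pair of Itgb1 with Itga6 or Itga7. Fn1 was detected in 25 cells and in 5 of the 7 cells with Itga5. The other 2, C38 and C40, had 0 reads of Fn1 and 2 reads of Itga5 each.

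Ligand levels differed among the cells with the highest Itgb1. C14 and C30 had 0 reads of Lama1, against a mean of 3163 ± 3837 CPM over all cells, and 2747 and 6084 CPM of Fn1, against 699 ± 1442 CPM. C30 was the cell with the highest Fn1 and the highest Itga5. C37 and C38, the highest in Itgb1 among the gene-rich cells, had 4256 and 2791 CPM of Lama1 and 0 of Fn1. Low Fn1 was common in the gene-rich cells, with a median of 17.1 CPM and no detection in 6 of 20. C09, also among the highest in Itgb1, was below the mean in both, with 738 CPM of Lama1 and 157 CPM of Fn1. Over the gene-rich cells the rho of Itgb1 was 0.31 with Lama1, 0.36 with Lamc1, 0.33 with Col4a1 and −0.11 with Fn1. In the same order, it was 0.24, 0.25, 0.12 and 0.49 for Itga6 and 0.27, 0.18, −0.09 and 0.32 for Dag1. With the number of genes with a read, it was 0.32 for Itgb1, 0.43 for Itga6 and 0.13 for Dag1. No link is read from these values.

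The bulk library held reads of 4 of the receptor genes: 24 of Itgb1, 16 of Itga5, 6 of Itga6 and 4 of Dag1. In bulk samples, fewer cells of a type and less RNA per cell cannot be told apart. Itga5 differed most from the single cells. Its bulk level was 340 CPM (exact Poisson interval 194 to 551), 19.5-fold the mean of the cells (11.2 to 31.7, from the bulk reads alone). The observed values of the cells were all lower, from 0 to 147 CPM. In 32 of 34 cells the upper limit of the count, the exact Poisson bound or 3 reads for a count of 0, was also below the bulk level. The exceptions were C30, whose 4 reads allow up to 375 CPM, and C94, where a count of 0 allows up to 477 CPM. In 31 of 34 cells the upper limit was below the lower bound of the bulk interval, 194 CPM. There C88, where a count of 0 allows up to 235 CPM, was a further exception.

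The other receptor genes were closer to bulk. Itgb1 was 509 CPM in bulk, 1.68-fold the mean of the cells (1.08 to 2.51), and 6 cells lay above it. The lower bound of this interval is near 1. The interval treats reads as independent, which they are not, and so understates the counting error. Whether the Itgb1 ratio differs from 1 therefore could not be decided. Itga6 was 127 CPM, a ratio of bulk to cells of 1.26 (0.462 to 2.74), and Dag1 84.9 CPM, a ratio of 1.06 (0.289 to 2.72), so neither ratio could be told from 1 at this depth. Itga7 had no bulk read, which allows up to 3 reads or 63.7 CPM. Its mean was at least 6.10-fold above that floor with C88 and under it without C88, so the bound rests on that cell.

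A gene was called past 2-fold on log2(CPM + 1) for 5266 genes, those whose cell and bulk levels averaged 1 CPM or more and that had either a bulk read or a cells' mean above the bulk floor. More than 2-fold lower in the cells were 37.5% of these genes and more than 2-fold higher 13.2%, with a median log2 ratio of cells to bulk of −0.45. Of the receptor genes, Itga5 was lower (log2 ratio −4.21), and Itgb1 (−0.75), Itga6 (−0.33) and Dag1 (−0.09) were within 2-fold. Itga7, with a bound of 2.59, entered the comparison only through C88, which fixed its direction, so nothing is read from it. Without the cells with Col1a2, Itgb1 was also past 2-fold lower, at −1.18, and with the reads pooled over cells it was −1.10. Itga5 was −4.43 and Itga6 −0.49 without the cells with Col1a2. With TMMwsp scaling factors the median of all genes moved by 0.41, to −0.04, and the shares of genes lower and higher in the cells became 29.4% and 19.5%. Itga5 was then −3.86, Itgb1 −0.33, Itga6 −0.05, Dag1 0.06 and the bound of Itga7 1.96, with its mean at 205 CPM in place of 388.

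Some markers of other cell types also differed between bulk and cells. The 8 fibroblast markers summed to 0 to 4288 CPM in the cells (median 0, highest in C14) and to 1719 CPM in bulk. Bulk reads were from Col1a1 (39), Col1a2 (40) and S100a4 (2), while Lum and Thy1 had 0 reads in every library. S100a4 went the other way, at 42.4 CPM in bulk and a mean of 85.1 CPM in the cells. Postn and Dcn had reads in the cells and 0 in bulk. The 7 measured trophoblast markers summed to 0 to 848 CPM in the cells (median 0) and to 891 CPM in bulk; Prl3d1 had reads only in bulk, and Cdx2, Elf5 and Ascl2 had 0 reads in every library. More than 2-fold lower in the cells were 2 of 3 fibroblast and 3 of 4 trophoblast markers compared, beside 37.5% of all compared genes. Of the blood and endothelial markers it was 1 of 3, and of the muscle markers 0 of 1. Fn1 was also higher in bulk, at 1995 CPM or 2.85-fold the cells' mean (2.31 to 3.49). That mean was 699 CPM over all cells and 420 CPM over the 30 cells without Col1a2. The part of these cell types in the bulk levels of Itga5 and Itgb1 was not tested.

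In single cells, fibroblast markers were detected in few libraries: Col1a1 in 4, Col1a2 in 4, S100a4 in 5 and Postn in 3. Of the trophoblast markers, Tfap2c was detected in 6 and Plac1 in 4. Among blood and endothelial markers, Pecam1 was detected in 11 and Gata1 in 7, and Hbb, Cdh5 and Kdr had 0 reads in the cells. Pluripotency markers Nanog, Pou5f1 and Sox2 were detected in 7, 3 and 3 cells.

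Other integrin subunits were detected in fewer than 17 cells each. Of 7 other α subunits measured, 3 were detected in at least 1 cell. Itgae, which encodes a partner of β7, was found in 11 cells at 14.3 ± 25.6 CPM, and all 11 were gene-rich, although Itgb7 had 0 reads. Itga4 and Itgal were each found in 1 cell, and Itga8 had 1 read. Of 6 other β subunits, 4 were detected in at least 1 cell, with Itgb5 in 14 at 34.6 ± 79.9 CPM, Itgb2 in 10, Itgb6 in 5 and Itgb4 in 2. Itgb5 and Itgb6 encode partners of αv in receptors for vitronectin, fibronectin and latent TGF-β. Itgb6 drew 69.7% of its signal from C37 and Itgb2 60.0% from C30. Itgb4 was found in C13 and C37, which are 2 of the 20 cells with Itga6. Itgb3 had 0 reads.

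Besides Dag1, laminin receptors outside the integrin family were represented by Sdc4 and Rpsa. Sdc4, a syndecan that acts with α5β1 at focal adhesions, was detected in 24 cells at 338 ± 409 CPM and in 18 of 20 gene-rich cells. Rpsa, which encodes a ribosomal protein also described as a laminin receptor, was detected in 31 cells at 1509 ± 1293 CPM. Rpsa has many processed copies in mammalian genomes, so its count is uncertain. Sdc1 was found in 5 cells, Sdc3 in 3 and Sdc2 in 1, and Bcam, a receptor for the laminin α5 chain, had 0 reads; Lama5, which encodes that chain, was found in 1 cell.

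**Figure D4:**
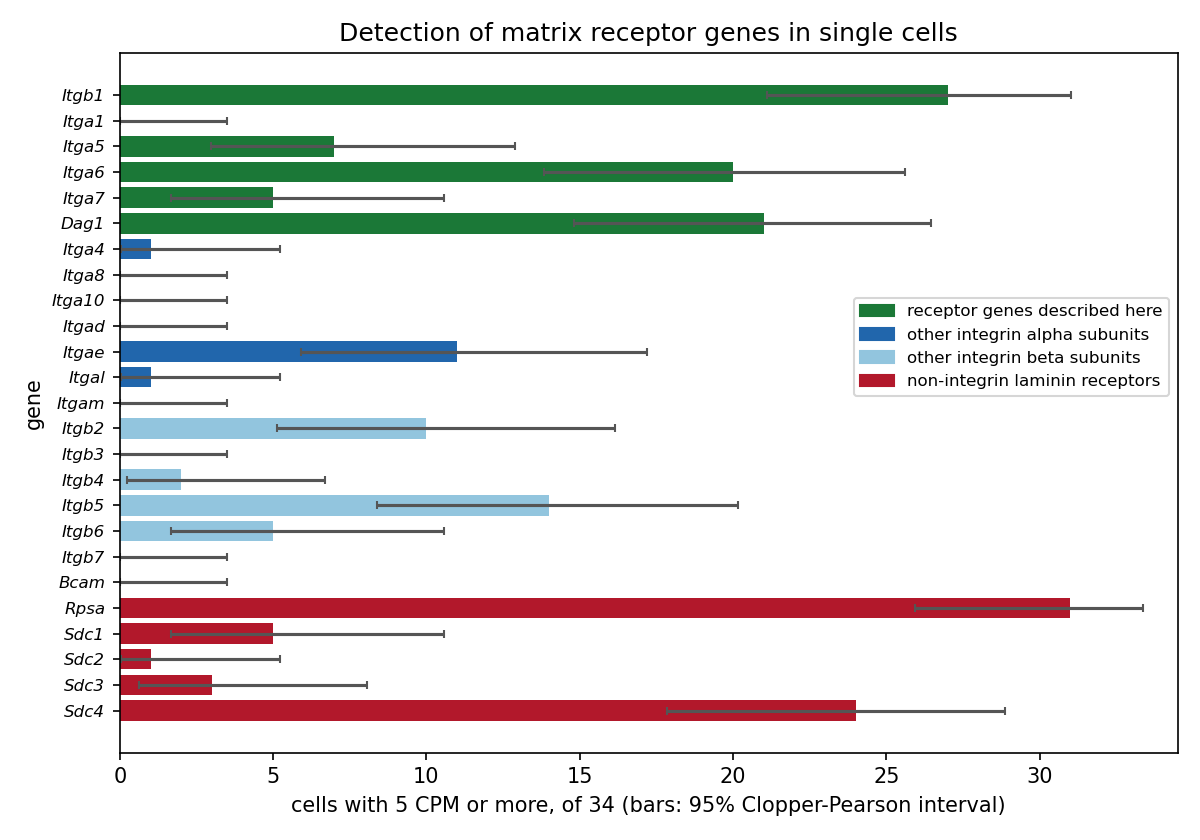
Number of cells, of 34, in which each matrix receptor gene was at 5 CPM or more, with 95% Clopper-Pearson intervals as lines. Itgb1 (27) and Itga6 (20) exceed all other integrin subunits, and Rpsa (31), Sdc4 (24) and Dag1 (21) lead the receptors outside the integrin family.

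Of 24 measured adaptor and signalling genes, which couple β1 to actin, 23 had a read in the cells and 10 were detected in at least 17 cells, beside 27.3% of all genes with a read. Actn4 was found in 28 cells, Vcl, which encodes vinculin, in 26 at 534 ± 679 CPM, Fermt2, which encodes the integrin activator kindlin-2, in 26 at 309 ± 815 CPM, and Ptk2, which encodes focal adhesion kinase, in 25. The talin gene Tln1 was found in 19, Ilk in 20, Flna in 22 at 305 ± 410 CPM and Cd151 in 21 at 628 ± 1294 CPM. C47 held 42.6% of the Fermt2 signal, and the mean was 183 CPM without it. The blood cell kindlin gene Fermt3 had 1 read, and Fermt1 was found in 3 cells. The genes of this list with the most bulk reads were Flna (48 reads, 3.34-fold higher in bulk, 2.47 to 4.43) and Actn4 (44 reads, 3.58-fold, 2.60 to 4.81). A choice by bulk reads favours genes high in bulk. Zyx, with 4 bulk reads, was 3.04-fold higher in the cells (1.19 to 11.2). Of the 17 list genes compared with bulk, 9 were more than 2-fold lower in the cells and 3 more than 2-fold higher. The shares of all compared genes were 37.5% and 13.2%.

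Genes of the dystrophin-glycoprotein complex, which anchors dystroglycan, were detected in a median of 1 cell. Of 11 measured, 8 had a read in the cells and 1 was detected in at least 17 cells, beside 27.3% of all genes with a read. This was Utrn, which encodes utrophin, in 20 cells at 70.4 ± 136 CPM. Sgce, the ε-sarcoglycan gene, was found in 11 cells and Dmd, the dystrophin gene, in 4. The muscle sarcoglycan gene Sgca had 0 reads, and Sgcb was found in 2 cells. Utrn was detected in 17 of 20 gene-rich cells and Dag1 in 15.

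Of 18 measured genes for the enzymes that build the laminin-binding sugar of dystroglycan, 17 had a read and 4 were detected in at least 17 cells, a share near the 27.3% of all genes with a read. The 4 were Dpm1 (21 cells), Dpm3 (18) and Dpm2 (17), which encode subunits of dolichol-phosphate mannose synthase, and the glycosyltransferase gene Large2 (18 cells, 105 ± 228 CPM). B4gat1, another glycosyltransferase gene, was found in 7 cells at 37.2 ± 100.3 CPM. The mannosyltransferase genes Pomt1 and Pomt2 were found in 8 and 5 cells. Low counts limit what a missing value says for these genes, most of which had under 3 bulk reads.

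The genes most like each widely detected receptor gene were sought over the 20 gene-rich cells, among 4191 genes. For Itgb1 they were Nsrp1 (rho 0.73), a splicing regulator gene, a record without a matched symbol (0.73) and Herpud1 (0.72), an endoplasmic reticulum stress gene. For Itga6 they were Tmed10 (0.73), a cargo receptor gene of the early secretory pathway, Trim5 (0.73) and Ncbp3 (0.71). For Dag1 they were the ubiquitin ligase gene Smurf2 (0.79), Blmh (0.75) and a record without a matched symbol (0.70). These are the highest of many values over cells of 1 culture, and they changed with the processing: 1 of the 9 stayed in its top 3 when the cells were thinned to 100000 reads and 3 of the 9 with Pearson's r. None of the 3 receptor genes was among the most like another.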

How the data were processed

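The authors deposited 1 table of raw read counts, with 17201 RefSeq records and a column per library. TopHat2 and the rn5 build are named, per the submitters' processing notes; the sources used here do not state the counter, the annotation or the treatment of shared reads. Identifiers of 16215 records matched a RefSeq gene table (GRCr8), used for symbols only. Counts were summed per symbol and scaled to CPM by column totals. No molecular identifiers are mentioned, and 82.5% of the 80 nonzero counts of receptor genes in cells were even. In bulk, 79.9% of all nonzero counts were even. Reads are therefore not independent. The intervals and floors treat them as independent, so they understate the counting error, and they cover no other error. Transcript lengths were not used here, so the planned comparison of genes per kilobase was not made; CPM ranked list genes only to choose which to name. No doublet caller was run.

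Members and lists were chosen with earlier results of these data known. The text names all members, the 4 list genes with the highest means and any integrin subunit in at least 17 cells, the hypoblast markers, other markers detected in at least 3 cells, the 3 genes most like each member found in at least 17 cells, and the cell with most of a member's signal; further list genes were named after their values were seen, and some list genes are not reported here. Scripts were tested on simulated data. Alternatives covered scaling (edgeR 4.0.16 TMMwsp factors), detection, depth, thinning and left-out cells. Python 3.11.15, SciPy 1.17.1 and R 4.3.3 were used.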

Additional observations from a re-analysis of the deposited data

How the results depend on the processing

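At a threshold of 50 CPM, 1 receptor gene in place of 3 was detected in at least 17 cells, and 32.4% of cells in place of 55.9% held Itgb1 with an α subunit. With the 20 gene-rich cells alone that share was 80%, and 0 receptor genes in place of 1 were more than 2-fold higher than bulk. The number higher than bulk was also 0 with the median over cells, with reads pooled over cells and without C88, and it ranged from 0 to 1 when each cell was left out in turn (1 to 1 for genes lower than bulk, 3 to 3 for genes in at least 17 cells). The receptor genes more than 2-fold lower than bulk were 1 with all cells, 2 without the cells with Col1a2, 2 with pooled reads and 4 with the median over cells. Thinned to 50000 reads, 2 receptor genes in place of 3 were detected in at least 15 of the 30 cells left, with Dag1 in 13 of these (43.3%) in place of 19. Of the 9 genes most like a receptor gene, 1 stayed after thinning and 3 with Pearson's r. The cause was not tested. Pooled reads and the results without C74 or C88 were chosen after the data were seen. No paired analysis was possible because the labels give no replicate numbers.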

Other observations

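Among genes on the adaptor list whose products can also limit β1 activation, chosen after their values were seen, Itgb1bp1 was found in 10 of 34 cells at 49.5 ± 107 CPM, and 8 of these were gene-rich. Sharpin was found in 11 cells at 13.03 ± 30.5 CPM, of which 10 were gene-rich, and Flna in 22. Itgb1bp1 and Sharpin had 0 bulk reads, which allows up to 63.7 CPM, and Flna had 48.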
